A study of Mus musculus with 4 samples.

Results

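The regions described here are stretches of the mouse genome in which elongating RNA polymerase II covered at least 10 kb more at postnatal day 12 (PD12) than in the adult uterus. The called intervals of both polymerase lists were pooled and joined across gaps of up to 5 kb, which gave 11353 stretches. Of these, 221 (1.95% of all stretches) had the required PD12 margin, the length covered at PD12 minus the length covered in the adult. They are called PD12-margin stretches, and they were chosen by POL2 cover of both stages, so every value of that cover below describes the choice. The opposite margin, adult cover at least 10 kb above PD12 cover, was found in 777 stretches (6.84%), called adult-margin stretches.

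Chromatin immunoprecipitation and sequencing was done on whole uterus of female mice with 2 antibodies. One was to FOXA2, and the other, POL2 in the labels, was to the C-terminal repeat of RNA polymerase II with phosphorylated serine 2. The adult libraries are labelled with days 2.5 and 3.5 of pseudopregnancy together, and the developing ones with postnatal day 12. Each of the 4 combinations of antibody and stage was 1 library without replicates, and no p-value is given. The sources used here do not give the strain, the number of animals or how the 2 adult days were combined.

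Polymerase phosphorylated on serine 2 is the form that travels along gene bodies, so wide intervals usually lie along transcribed units. In the mouse uterus around PD12 the glands are budding from the luminal epithelium into the stroma while the muscle layers form. In pseudopregnancy, which follows a sterile mating, progesterone prepares the same tissue for implantation. FOXA2 is a forkhead factor of the glandular epithelium and is required in mice for gland development.

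The lists held 14818 POL2 intervals covering 95.2 Mb in the adult and 9972 covering 70.4 Mb at PD12. For FOXA2 they held 10373 intervals in the adult and 814 at PD12. The files give positions without height, score or read count, so depth is unknown, and cover means the number of bases inside called intervals. A region can gain cover by crossing the caller's threshold, and in whole uterus a smaller share of cells and less polymerase per cell cannot be told apart. The genome build is not named in the sources used here. In the 4 lists, 260 intervals had ends past the final gene of their chromosome in GRCm38, the build of the gene table at hand, which affected 9 of 20 chromosomes, and 4 of the PD12-margin stretches lie there, all on chromosome 7. No gene, exon, intron or sequence is therefore assigned to any stretch, and positions are given as the files have them.

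The PD12-margin stretches had a median length of 24.6 kb (interquartile range 15.8 to 41.6). Their median adult cover was 5.2 kb (0 to 18.2), against 20.8 kb (14.4 to 33.2) at PD12. In sum they held 3.17 Mb of adult cover and 6.71 Mb of PD12 cover. These sums support no difference between stages. Most margins were small: 182 stretches had a margin under 20 kb, 35 had 20 to 40 kb and 4 had 40 kb or more.

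The limit of 10 kb lay in the upper tail of the margins (interquartile range over all stretches -4.4 to 1 kb), at no gap in it. Exactly 8 stretches had a margin of 10 kb and 10 had 9.8 kb, and 76 stretches lay at 10 kb to under 12 kb against 135 at 8 kb to under 10 kb. Just inside were chromosome 11, 32105000 to 32139599 (21.0 kb of adult and 31.0 kb of PD12 cover), and chromosome 1, 183740200 to 183755999 (2.4 and 12.4 kb). Just outside were chromosome 11, 100265400 to 100297999 (20.2 kb of adult and 30.0 kb of PD12 cover), and chromosome 15, 12734000 to 12749599 (3.2 and 13.0 kb). Stretches on either side of the limit thus had like covers and differed in margin by 0.2 kb.

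**Figure D1:**
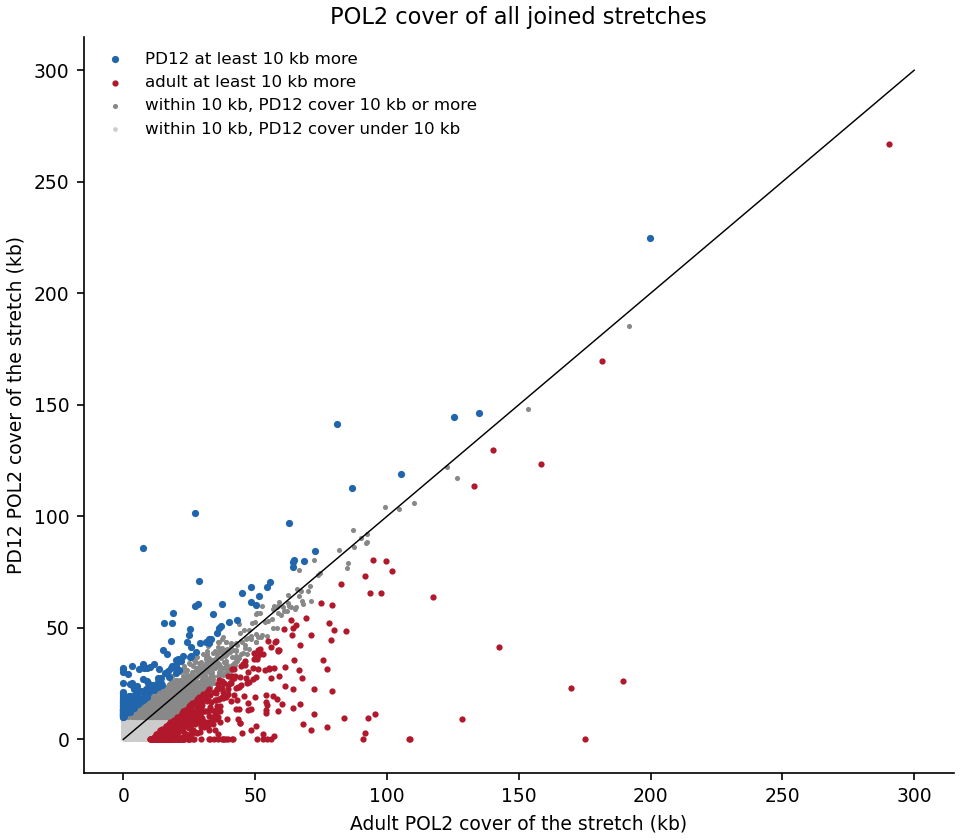
Each point is a pair of covers found in 1 or more of the 11353 stretches, with adult POL2 cover in kb on the horizontal and PD12 POL2 cover in kb on the vertical axis, and the line marks equal cover. PD12 minus adult cover reaches 78.2 kb in the 221 PD12-margin stretches (blue) and -175.2 kb in the adult-margin ones (red).

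The PD12-margin stretches held 3.86 Mb of the 19.7 Mb of bases covered at PD12 and not in the adult, or 19.6%, and 9.53% of all PD12-covered bases, a difference that the rule itself fixes. Of their adult-covered bases, 89.9% were also covered at PD12, against 53.2% over all stretches. The rule favours PD12 cover, so nothing is read from this difference. In 50 of the 149 stretches with any adult cover every adult base lay inside PD12 cover. Adult-margin stretches mirrored this, with 90.6% of their PD12-covered bases also covered in the adult, against 72.0% over all stretches.

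The stretches fell along a range from no adult interval to nearly full adult cover. No adult interval was listed in 72 (32.6%, exact 95% binomial interval 26.4 to 39.2). Over all stretches with any PD12 cover, 1227 of 7031 (17.5%) had none, and since the rule favours low adult cover nothing is read from the difference. Adult cover was present but under 50% of PD12 cover in 84 stretches, and 50% or more in 65. Because a fixed margin of 10 kb is a smaller part of a long stretch, these kinds differed in length, with medians of 13.6, 24.6 and 49.6 kb. By shared bases, 34 stretches kept up to 20% of their PD12-covered bases in the adult list, and 8 kept more than 80%.

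**Figure D2:**
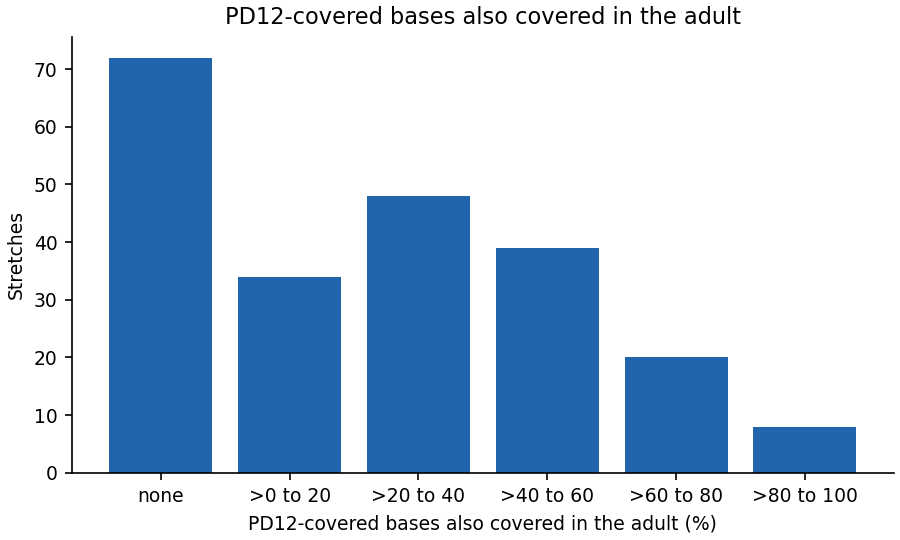
Bars count the PD12-margin stretches by the share of PD12-covered bases that the adult list also covers, in percent. The bar for none holds 72 stretches, and from left to right the others hold 34, 48, 39, 20 and 8.

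The widest margin was at chromosome 8, 91043600 to 91129199. The adult list had just 7.4 kb there, in 1 interval, against an unbroken PD12 interval of 85.6 kb that made up the whole stretch. The adult interval lay from 73.0 to 80.4 kb from the left end, which left a run of 73.0 kb covered at PD12 alone, the longest such run in any PD12-margin stretch. This was also the only one of them with 2 PD12 FOXA2 intervals, and it held no adult one.

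The next, at chromosome 7, 137297800 to 137406399, was broken up differently. The adult list had 4 separate intervals of 12.6, 2.8, 1.2 and 10.4 kb, against 6 PD12 intervals that were separated by short gaps and covered 101.6 of 108.6 kb. All 27.0 kb of adult cover lay inside PD12 cover. Of 3 adult FOXA2 intervals in its right-hand part, 1 lay inside an adult POL2 interval, 1 in bases covered at PD12 alone, and 1 was centred in a short gap between PD12 intervals, where the adult list had nothing up to the end of the stretch.

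At chromosome 5, 125485000 to 125649999, both stages were broken into many intervals. The adult list had 10 intervals covering 81.2 kb and the PD12 list 8 intervals covering 141.6 kb, with 70.2 kb in common. Its longest run covered at PD12 alone was 9.8 kb, so the margin of 60.4 kb was made of many short pieces. The fourth margin above 40 kb was at chromosome 17, 46681800 to 46769999, where adult cover was 28.6 kb and PD12 cover 70.8 kb. There the rightmost interval was an adult one of 5.6 kb that lay beyond the last PD12 interval.

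Further large margins were at chromosome 1, 40030800 to 40090799 (18.8 kb of adult and 56.6 kb of PD12 cover), and chromosome 17, 56527000 to 56585999 (15.4 and 52.0 kb). Chromosome 12, 81258800 to 81363999, had an adult cover of 63.0 kb, a PD12 cover of 97.0 kb and 3 adult FOXA2 intervals. At chromosome 8, 8612000 to 8667399, the 2 adult intervals, of 6.6 and 12.0 kb, sat at opposite ends, and 25.8 kb between them was an unbroken run of PD12 cover alone. Remaining adult cover thus took several positions among the largest margins, near an end, at both ends or scattered.

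**Figure D3:**
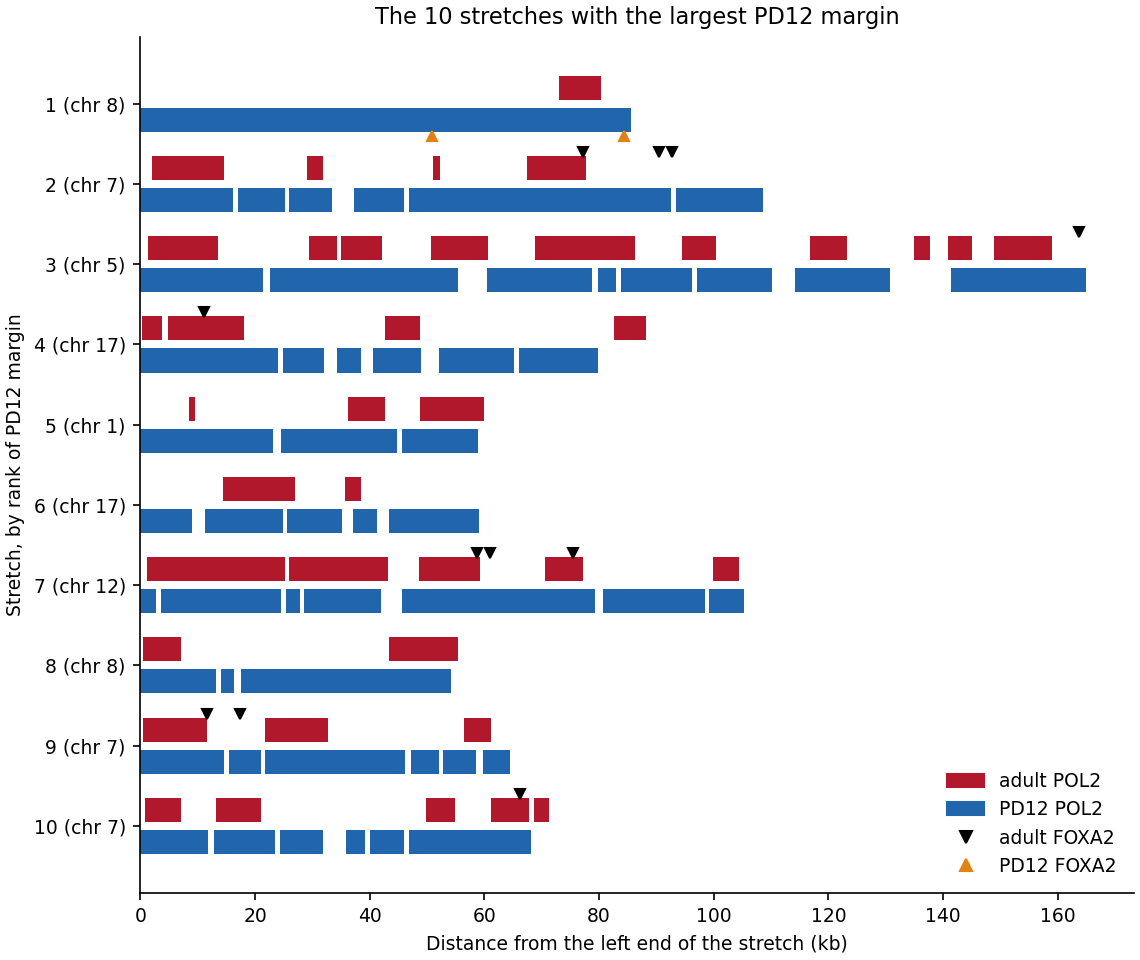
For each of the 10 stretches with the largest PD12 margin, adult POL2 intervals (red, upper row) and PD12 POL2 intervals (blue, lower row) are drawn to scale by distance in kb from the left end of the stretch, with triangles at the centres of FOXA2 intervals. Adult cover ranges from 7.4 kb in the first stretch to 81.2 kb in the third, and PD12 cover from 52.0 kb in the sixth to 141.6 kb in the third.

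Among the 25 largest margins, 4 had no adult interval. These were chromosome 19, 56978600 to 57010599 (0 kb of adult and 32.0 kb of PD12 cover), chromosome 2, 93083800 to 93124199 (0 and 31.6 kb), chromosome 10, 5706200 to 5736999 (0 and 30.0 kb), and chromosome 10, 85785600 to 85815199 (0 and 25.2 kb). The first was 1 unbroken PD12 interval and each of the others was 2 or 3 intervals. The first and second each held an adult FOXA2 interval in bases with PD12 polymerase alone, so FOXA2 was listed in the adult where adult polymerase was not.

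Long stretches with most of their cover at both stages also passed the rule. The longest, at chromosome 2, 115674400 to 115906999, had 199.6 kb of adult and 225.0 kb of PD12 cover, and its longest run at PD12 alone was 7.4 kb. At chromosome 11, 18766600 to 18923599, adult cover was 135.0 kb and PD12 cover 146.4 kb, and at chromosome 16, 43494000 to 43649599, they were 125.4 and 144.4 kb. In these 3 the adult list had 14, 14 and 12 intervals, against 9, 6 and 5 at PD12. More adult than PD12 intervals were found in 29 of the 221 stretches.

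Over the 221 stretches there were 388 adult and 553 PD12 intervals, and the median stretch had 1 adult interval (0 to 14) and 2 PD12 intervals (1 to 9). The median longest run covered at PD12 alone was 10.4 kb (lowest 3.4, highest 73.0), and in 125 stretches it was 10 kb or more. Where adult cover was present, it came within 1 kb of both ends of the stretch in 28 of 149 (18.8%, 12.9 to 26), of 1 end in 72 (48.3%, 40.1 to 56.6) and of neither in 49 (32.9%, 25.4 to 41.0). All adult cover lay on 1 side of the middle of the stretch in 54 (36.2%, 28.5 to 44.5).

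In adult-margin stretches the stage with less cover, PD12, came within 1 kb of both ends in 33 of 465 and of neither in 214. Both kinds were chosen by this cover, so the counts are given as a description and nothing is read from their difference. Stretches are not replicates, and which end is the start of a transcribed unit is not known here.

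The PD12-margin stretches were found on all 20 chromosomes listed. Chromosomes 2 and 7 had 22 each, chromosome 11 had 18, chromosome 6 had 16 and chromosome X had 1 of its 241 stretches. As a share of the stretches on the chromosome, they were most frequent on chromosome 7 (2.97%), 17 (2.71%) and 6 (2.64%), and least on X (0.415%), 14 (1.01%) and 5 (1.07%). Over all stretches, adult cover was 116% of PD12 cover on chromosomes 7 and 17, the lowest of the 20, and 150% on chromosome 6, against 135% in the genome. Chromosome 15, with the next lowest ratio (122%), had a share of 1.96%. The share and the ratio both come from the POL2 cover that the rule used, so nothing is read from how they go together.

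Some PD12-margin stretches lay next to each other. Another lay within 100 kb of 50 of them (22.6%, 17.3 to 28.7), in 23 chains of 2 or 3. Nearness is mutual, so these limits treat dependent stretches as independent. Of the 27 neighbouring pairs, 11 were separated by under 10 kb, just beyond the 5 kb at which stretches were joined. The share of all stretches with a PD12-margin stretch within 100 kb was not computed, so no clustering is read from these counts. Within 100 kb, an adult-margin stretch was found beside 25 (11.3%, 7.46 to 16.2). At larger distances the order was the other way, as within 1 Mb an adult-margin stretch was found beside 125 (56.6%, 49.7 to 63.2) and another PD12-margin stretch beside 103 (46.6%, 39.9 to 53.4). The median gap was 747.8 kb to the nearest adult-margin stretch and 1343 kb to the nearest stretch of the same kind, of which there are fewer. In 8 chains no adult POL2 was listed over the whole span.

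The chains are described by their whole span, which can include uncovered bases. In 14 of the 23 no other stretch lay between the members. On chromosome 12, 3802600 to 3901399, 3 adjoining stretches had together 9.2 kb of adult and 68.0 kb of PD12 cover, with no FOXA2 of either stage. On chromosome 7, 151766800 to 151871999, 3 had 11.6 kb of adult and 68.6 kb of PD12 cover, with 1 adult and 1 PD12 FOXA2 interval. The pair on chromosome 10, 85761200 to 85815199, had no adult cover and 41.4 kb at PD12, and the pair on chromosome 6, 91307200 to 91361999, had none and 38.0 kb. On chromosome 16, 43385600 to 43649599, the chain of 3 included the long shared stretch named above. Its whole span, with 1 other stretch between the members, had 126.6 kb of adult and 171.6 kb of PD12 cover.

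Cover in the flanks was not used to choose the stretch between them, apart from the empty 5 kb on each side that the joining leaves. Flanks can, however, hold other stretches that the rule chose. In the 50 kb on each side of PD12-margin stretches, adult POL2 covered 9.47% of bases and PD12 POL2 10.9%. Beside adult-margin stretches the values were 14.4% in the adult and 6.83% at PD12. Stretches with at least 10 kb of PD12 cover and a difference under 10 kb, called long balanced stretches (1754), had 11.4% in the adult and 8.89% at PD12. With the bases of other PD12-margin stretches left out, which removes bases rich in PD12 cover, adult cover was 8.89% and PD12 cover 8.09%, and beside adult-margin stretches, treated the same way, 9.76% and 6.31%.

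Counted by stretch, the adult list covered more of the flanks beside 91 of the PD12-margin stretches and the PD12 list more beside 74, with no POL2 of either stage beside 53. For long balanced stretches the counts were 970 with more adult cover and 430 with more PD12 cover, and for adult-margin stretches 553 and 92. Beside more of the PD12-margin stretches, then, the adult list had the larger flank cover. By distance, in bins of 5 kb from 5 to 100 kb, the adult list covered more in 5 bins and the PD12 list in 14 of 19. The values were 12.7% in the adult and 16.3% at PD12 at 10 to 15 kb, and 8.18% and 7.64% at 90 to 95 kb.

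**Figure D4:**
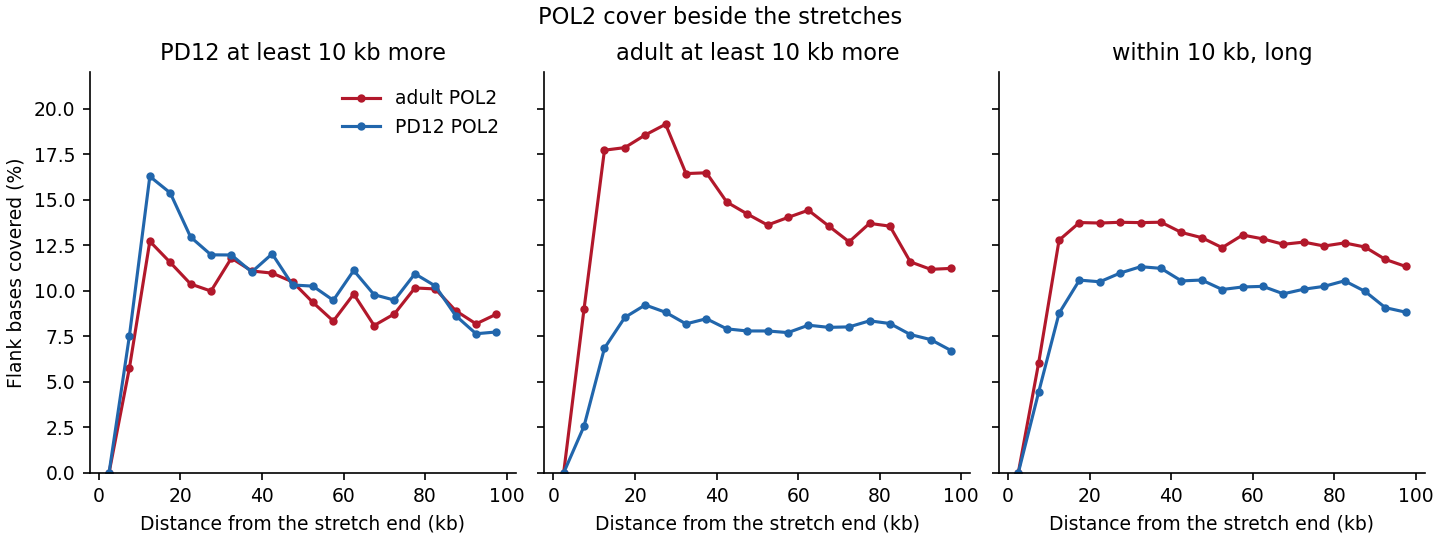
The share of flank bases covered by POL2 in percent is plotted against distance from the stretch end in kb, in bins of 5 kb, for adult (red) and PD12 (blue) POL2, with 1 library each and no error bars. Beside PD12-margin stretches the adult line is lower close by, 12.7% against 16.3% at PD12 at 10 to 15 kb, and the lines run close to each other farther out, whereas the adult line is higher throughout beside the other kinds. Flank bases inside other stretches of the same kind are kept, so the lines are not independent of the rule.

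The FOXA2 lists were not used to choose the stretches and were compared next. Most PD12-margin stretches held no FOXA2 interval of either stage. An adult FOXA2 interval overlapped 61 of 221 (27.6%, 21.8 to 34.0) and a PD12 one 12 of 221 (5.43%, 2.84 to 9.29), with 68 holding either and 5 both. The shares over all 11353 stretches were 16.4% and 2.25%, but those are mostly shorter, and a longer stretch meets more intervals. Adult-margin stretches (median 23.8 kb) were nearer in length, and long balanced ones (median 20.2 kb) were somewhat shorter than the PD12-margin ones. Adult FOXA2 was in 33.1% (29.8 to 36.5) of the adult-margin and 30.6% (28.5 to 32.8) of the long balanced stretches. PD12 FOXA2 was in 3.47% (2.30 to 5.02) and 4.96% (3.99 to 6.08). All these shares had limits that overlap those of the PD12-margin stretches, which does not show that they are alike.

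Per length, adult FOXA2 was sparser in PD12-margin stretches than in adult-margin and long balanced ones. They had 79 adult intervals in 7.58 Mb, 10.4 per Mb (exact Poisson 95% interval 8.25 to 13.0). Adult-margin stretches had 13.6 per Mb (12.2 to 15.1) and long balanced stretches 15.7 (14.6 to 17.0). Over all stretches the rate was 17.6 per Mb (16.9 to 18.4), so each of these kinds lay below it. The ratio to adult-margin stretches was 0.766 (0.592 to 0.980) and to long balanced ones 0.662 (0.518 to 0.837) (limits from the binomial split of both counts). The first ratio was near the edge of counting error, and its limits included 1 under 4 other settings, among them a gap of 2 kb (0.784, 0.587 to 1.03). The rule favours bases covered at PD12 alone. In the other stretches, too, such bases had fewer adult FOXA2 centres, 6.93 per Mb against 20.3 in bases covered at both stages. How much of the lower rate goes with this make-up was not tested.

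PD12 FOXA2 was not detectably different at this number of intervals. There were 13 PD12 intervals in PD12-margin stretches, 1.72 per Mb (0.913 to 2.93), against 1.07 (0.708 to 1.56) in adult-margin and 2.14 (1.73 to 2.63) in long balanced stretches. The ratio was 1.60 (0.756 to 3.20) to the first and 0.800 (0.411 to 1.44) to the second. With stretches joined across gaps of up to 2 kb only, the ratio to adult-margin stretches was 2.42 (1.08 to 5.29), resting on 13 and 17 intervals.

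Inside the PD12-margin stretches, adult FOXA2 was denser in bases covered at both stages than in bases covered at PD12 alone. Of the 78 adult FOXA2 centres inside them, 24 lay in the 3.86 Mb covered at PD12 alone (6.21 per Mb, 3.98 to 9.25) and 50 in the 2.85 Mb covered at both stages (17.6 per Mb, 13.0 to 23.2), a ratio of 0.354 (0.208 to 0.587). The other 4 centres lay in bases covered in the adult alone (2) or at neither stage (2). Bases covered in the adult alone thus had 6.23 per Mb (0.754 to 22.5), too few centres to set adult polymerase alone apart from either. The 11132 other stretches had nearly the same values, 6.93 per Mb (5.69 to 8.35) in bases covered at PD12 alone and 20.3 per Mb (19.1 to 21.7) at both, a ratio of 0.340 (0.277 to 0.415). The pattern is thus not particular to the PD12-margin stretches. In the other stretches, bases covered in the adult alone had 21.4 adult centres per Mb (20.1 to 22.8), close to the value at both stages. In adult-margin stretches, bases covered in the adult alone and at both stages had 14.9 and 14.7 adult centres per Mb, a ratio of 1.02 (0.801 to 1.30).

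Of the 13 PD12 FOXA2 centres, 7 lay in bases covered at PD12 alone and 6 in bases covered at both stages. That was 1.81 per Mb (0.729 to 3.73) and 2.11 per Mb (0.774 to 4.59), a ratio of 0.860 (0.247 to 3.10). These limits include the ratio of adult FOXA2, 0.354, so no difference from adult FOXA2 was shown. In the other stretches the ratio was 0.308 (0.164 to 0.534). The limits overlap and the counts are small, so no difference between the 2 kinds was shown.

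**Figure D5:**
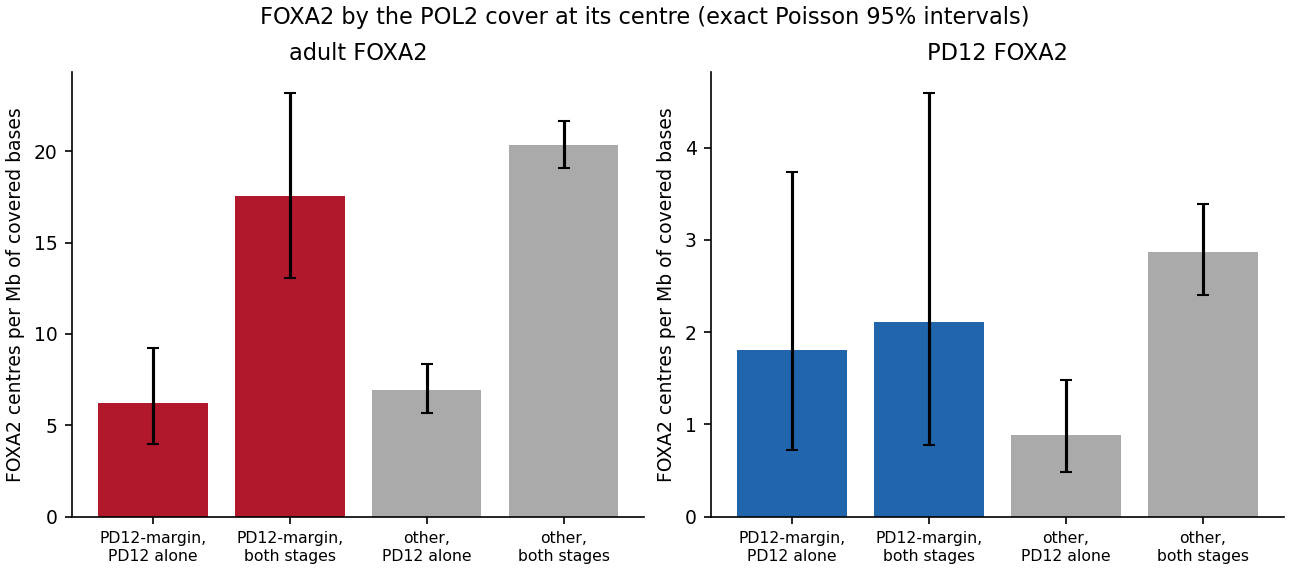
FOXA2 centres per Mb of covered bases are shown for adult FOXA2 (left) and PD12 FOXA2 (right), in PD12-margin stretches (coloured) and all other stretches (grey), by whether POL2 covered the base at PD12 alone or at both stages, with exact Poisson 95% intervals for counting error. Adult FOXA2 is lower where polymerase was listed at PD12 alone in both kinds, at 6.21 and 6.93 per Mb.

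Adult FOXA2 was in a larger share of the stretches with more adult polymerase, which were also longer. It was in 7 of the 72 without adult POL2 (9.72%, 4.00 to 19), in 21 of the 84 with adult cover under 50% of PD12 cover (25%, 16.2 to 35.6), and in 33 of the 65 with more (50.8%, 38.1 to 63.4). These kinds differ in length, and per Mb the values were 6.34 (2.55 to 13.1), 9.99 (6.47 to 14.8) and 11.8 (8.70 to 15.7), with limits that overlap. No difference per Mb was therefore shown.

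The adult FOXA2 intervals in PD12-margin stretches had a median width of 814 bp, against 685 bp in the whole adult list. Of the 79, 57 were wider than the list's median. Most of that list lay outside POL2 stretches, which held 2172 of its 10373 intervals. Widths in the other kinds of stretch were not compared, so greater width is not shown to be particular to PD12-margin stretches. The PD12 FOXA2 intervals in PD12-margin stretches had a median of 338 bp, against 318.5 bp in the whole PD12 list. The most adult FOXA2 intervals, 4, were at chromosome 8, 87205400 to 87340599, a stretch of 135.2 kb with 105.4 kb of adult and 118.8 kb of PD12 cover, and 1 PD12 FOXA2 interval overlapped 1 of them. Chromosome 11, 102955200 to 102996199, with 25.8 kb of adult and 37.6 kb of PD12 cover, held 3 adult FOXA2 intervals and 1 PD12 interval, which overlapped 1 of them. Only 12 stretches held 2 or more adult FOXA2 intervals.

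PD12 FOXA2 intervals overlapped an adult one in 5 of 13 cases, each in a different stretch. Besides the 2 just named, these were at chromosome 7, 116660000 to 116694199 (17 kb of adult and 30.8 kb of PD12 cover), chromosome 6, 101159200 to 101170799 (0 and 11.6 kb), and chromosome 2, 33074200 to 33085599 (0 and 11.4 kb). The last 2 had FOXA2 at both stages and polymerase at PD12 alone. Besides the first stretch on chromosome 8, PD12 FOXA2 in 3 stretches stood with little or no adult POL2 and no adult FOXA2 of any kind, at chromosome 17, 26551200 to 26565799 (0 kb of adult and 14.6 kb of PD12 cover), chromosome 7, 20326800 to 20346399 (2.0 and 19.6 kb), and chromosome 7, 151801200 to 151828399 (2.4 and 24.8 kb).

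The widest PD12 FOXA2 interval of these stretches stood apart. It measured 2637 bp, at chromosome 2, 77762666 to 77765302, and the next was 715 bp. Its stretch, 77707800 to 77789999, had 1 unbroken adult interval of 64.8 kb, 77725200 to 77789999, and 80.2 kb of PD12 cover. The PD12 list held an interval with the same start and end, and the FOXA2 interval lay inside it. Input DNA was not analysed here, and whether signal there depended on the antibody was not tested. Without that FOXA2 interval, 12 PD12 FOXA2 intervals remain in 11 stretches.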

How the data were processed

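The authors deposited 4 lists of called intervals, 1 for each antibody and stage, which per the file headers hold chromosome, start and end in bp. Reads were aligned with BWA, per the submitters' processing notes, which give no version. The sources used here name neither the peak caller and its settings nor the genome build. Starts of both POL2 lists lie on a grid of 200 bp.

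Positions were counted as inclusive. The POL2 intervals of the 2 lists were pooled, neighbours up to 5 kb apart were joined, and the bases covered at each stage were summed per stretch. A FOXA2 interval was placed in a stretch at an overlap of at least 1 bp. Shares have exact (Clopper-Pearson) 95% binomial intervals and rates exact Poisson ones. They cover counting error only, since regions are not replicates. Regions were named by the size of the PD12 margin (25 largest), FOXA2 content, closeness to the 10 kb limit, and, chosen after their values were seen, length and chains. The planned gene lists and gene positions were not used, because no annotation of the files' build was at hand. The rule and lists were chosen with earlier results of these data known. Joining and cover were tested on simulated lists, and no cover differed from a count of every base. Python 3.11.15, numpy 2.4.6, pandas 2.3.3, scipy 1.17.1 and matplotlib 3.10.9 were used.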

Additional observations from a re-analysis of the deposited data

How the results depend on the processing

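All alternatives were planned and gave 43 values of 7 results. Of 33 values of results with 95% limits, 25 stayed within the limits of the reported value and 8 did not. Among these results only the ratios of FOXA2 rates have a direction, and each stayed on its side of 1. The count of stretches and the ratio of covers have no limits. The 221 stretches became 39 with a margin of 20 kb, and lay between 156 and 272 otherwise. Adult cover, 47.2% of PD12 cover, was 44.5% with a gap of 2 kb, 50.9% with 10 kb, 43.2% with a margin of 20 kb, 19.7% where PD12 cover had to be at least 2 times adult cover, and 43.8% when only the 9972 widest adult intervals were used. In the same order, the share with no adult cover, 32.6%, was 42.4%, 25.1%, 17.9%, 46.2% and 45.6%. The share with adult FOXA2, 27.6%, was 46.2% with a margin of 20 kb, 17.9% with the requirement of 2 times and 20.4% with the widest 50% of FOXA2 intervals. The cause of these moves was not tested. The ratio of adult FOXA2 rates to adult-margin stretches, 0.766, lay between 0.611 and 0.859, and its limits included 1 with a gap of 2 kb, a margin of 20 kb, the reduced adult list and the widest FOXA2 intervals. That of PD12 FOXA2, 1.60, lay between 1.40 and 2.49. No paired analysis was possible because there was 1 library a group. Gene position was not run. Unknown depth limits every comparison of cover between stages.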
